A study of Mus musculus with 6 samples.

Results

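Annexins are proteins that bind negatively charged phospholipids when calcium rises. Their genes were followed here in CD8+ effector T cells (Teff) of wild-type (WT) and Scd-1-/- mice. The members were the rows whose gene name was Anxa1, Anxa2, Anxa3, Anxa4, Anxa5, Anxa6, Anxa7 or Anxa11. All 8 names were found, among 34745 genes in the files. Of the 8, 7 reached the mean level that was required for testing, 1 FPKM (fragments per kilobase of gene length, scaled to the library total), as did 9627 genes in all. Anxa3 did not, and its test came from a wider fit that took in each of the 17192 genes counted at least once. The study addressed how loss of stearoyl-CoA desaturase 1, the enzyme that makes oleic and palmitoleic acid from saturated fatty acids, alters Teff cells. The WT mice were C57BL/6J animals bought from a supplier and the Scd-1-/- mice were a whole-body knockout line that was donated, so line and source cannot be told apart from genotype. The methods name young male mice for the experiments. Splenic CD8+ T cells of both genotypes were isolated with magnetic beads. They were then stimulated for 3 days with 5 μg/mL anti-CD3, 0.5 μg/mL anti-CD28 and 100 U/mL IL-2, washed, kept in IL-2 for 3 more days and harvested on day 6. There were 3 libraries for each genotype, numbered 1 to 3. The methods speak of independent experiments in general, but neither they nor the labels say what mouse or culture a library came from, so the p-values measure only the spread between these libraries.

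Each annexin has a conserved core that docks on membranes in the presence of calcium and a short, variable head that decides which partners it meets. Through these parts annexins join membranes to each other and to the actin cortex, patch wounds in the plasma membrane and bind phosphatidylserine on dying or activated cells. In T cells the family is best known through annexin A1, an anti-inflammatory protein induced by glucocorticoids, annexin A2, which pairs with the small protein S100A10, and annexin A5, the reagent used to stain exposed phosphatidylserine.

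Libraries held 14034479 to 15866216 counts, and the 8 annexin genes together took 0.326% to 0.487% of them. Scd1, the targeted gene, was at 45.3 to 58.2 FPKM in WT against 0.261 to 0.528 FPKM in Scd-1-/- libraries. The 6 markers of CD8 T cells were all expressed, with a summed level of 1885 to 2379 FPKM in WT against 1837 to 2108 FPKM in Scd-1-/- libraries. Replicate 1 of both genotypes stood apart from the other 4 libraries on the first principal component, which held 42.3% of the variance. Results are therefore also given for replicates 2 and 3 only and with the replicate number as a block. In bulk RNA, fewer cells of a type and less RNA per cell cannot be told apart.

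Anxa1 is the member that changed between the genotypes and Anxa2 is among the most abundant, and the stretch before their start sites is printed because both hold a TATA box. RefSeq promoter windows, short stretches around annotated start sites on GRCm38.p6, were found for 6 of the 8 members. Anxa3 and Anxa6 had no entry. The letters TATAAA (the TATA box, where the transcription machinery can dock) were searched on both strands, and 13.6% of 32851 windows held them. Among the members, only the windows of Anxa1 and Anxa2 did. In the lines that follow, the capitals mark these letters. Both stretches also lie inside the first untranslated exon of a longer transcript annotated by GENCODE.
Anxa1, chr19:20390686-20390715, minus strand: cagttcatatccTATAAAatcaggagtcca
Anxa2, chr9:69453654-69453683, plus strand: ggatggggcgggTATAAAagccccacccag

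The TATAAA letters began 32 bases before the RefSeq start site in Anxa1 and 17 bases before it in Anxa2. The core AGGTGT, which T-box factors such as Eomes and T-bet can bind, stood in the windows of Anxa1 and Anxa4, and in 13.7% of all windows. The glucocorticoid receptor half-site AGAACA was found in Anxa4 among the members and in 19.0% of all windows. The core CTTTGA of TCF and LEF factors was found in Anxa4 and Anxa7, and in 16.0% of all windows. No matches overlapped within the windows of the members, and they describe the windows, not sites in use.

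Levels per kilobase of gene length differed widely among the members, from rank 108 to rank 10180 of all genes by mean FPKM. Anxa6 had a mean of 494 FPKM over the 6 libraries, and Anxa2 had 484 FPKM, rank 111. The ranges of these genes overlapped, and Anxa6 was above Anxa2 in 3 of 6 libraries. Anxa5 followed at 63.1 FPKM and Anxa7 at 48.7 FPKM. The ranges of this pair overlapped as well, although Anxa5 was higher in 6 of 6 libraries. Anxa1 had 24.2 FPKM, Anxa11 17.3 FPKM, Anxa4 5.70 FPKM and Anxa3 0.748 FPKM. The wide range of Anxa1, from 6.99 to 47.4 FPKM, overlapped with those of Anxa7, Anxa11 and Anxa4, which reached 7.81 FPKM. Anxa3 lay below the rest. By the means of each genotype, Anxa1 passed Anxa11, from 6th in WT to 5th in Scd-1-/- cells, and Anxa2 and Anxa6 also traded places, within ranges that overlapped. Anxa2 and Anxa6 together made up 82.8% to 87.9% of the summed annexin FPKM in every library. The mean share of Anxa1 in that sum was 0.846% in WT and 3.41% in Scd-1-/- libraries. The gene lengths behind the deposited FPKM were not those of 1 transcript. With the length of the longest annotated principal transcript, a choice made after seeing the data, Anxa2 stood first and Anxa6 second. In Scd-1-/- cells Anxa1 and Anxa5 were then nearly level for the third place, with means of 88.0 and 87.1 per kilobase.

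**Figure D1:**
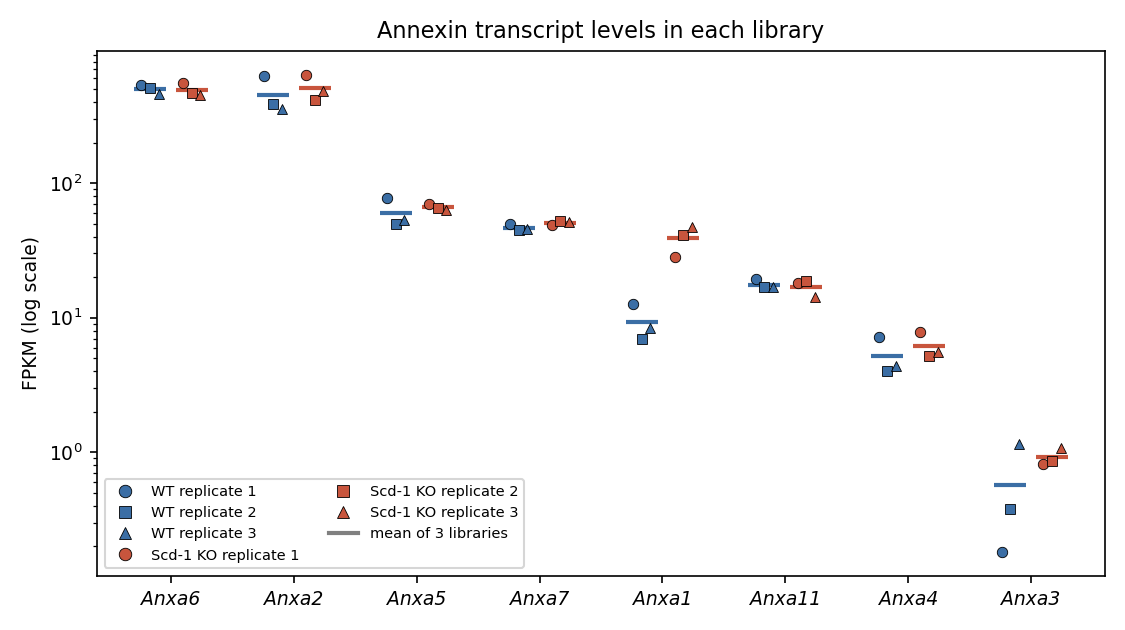
FPKM of each annexin gene (log axis) in the 3 WT (blue) and 3 Scd-1-/- (red) libraries, with the shape giving the replicate number and the bar the mean of 3 libraries; genes are ordered by mean level. Anxa1 is the one gene whose groups stand apart, at 6.99 to 12.7 FPKM in WT against 28.5 to 47.4 FPKM in Scd-1-/- libraries.

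Anxa1 (ENSMUSG00000024659, GRCm38 chr19:20373428-20390944, minus strand) encodes the annexin that restrains inflammation, in part as a secreted ligand of formyl peptide receptors. Its levels were 12.7, 6.99 and 8.39 FPKM in WT replicates 1, 2 and 3, and 28.5, 41.5 and 47.4 FPKM in Scd-1-/- replicates 1, 2 and 3. The groups did not overlap, and replicate 1 was the highest WT library and the lowest Scd-1-/- library. These levels rested on 369 to 725 counts in WT and 1669 to 2829 counts in Scd-1-/- libraries. The mean rose from 9.36 ± 2.98 FPKM to 39.1 ± 9.67 FPKM (SD, n = 3 each).

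The edgeR quasi-likelihood test of the counts gave Anxa1 a log2 fold change of 2.08 (standard error 0.29), a 4.23-fold increase with a 95% interval of 2.67 to 6.71. Its unadjusted p was 1.06e-04, so Anxa1 passed both thresholds that the methods set (absolute log2 fold change of 1 or more, and p below 0.001). The methods do not say whether that p was adjusted, and the unadjusted p was used here. The p adjusted over all 9627 genes was 0.0629, above 0.05. With the replicate block the log2 fold change was 2.10 and the adjusted p 0.0091, and in replicates 2 and 3 only they were 2.57 and 1.9e-05. Anxa1 passed the thresholds in each of the 6 fits that left out 1 library. Anxa1 is also among the genes that the study picked from these libraries, so its direction here is not independent evidence.

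Of the 7 members tested, 1 passed the thresholds, and it rose. Over all genes, 0.738% passed in either direction and 0.499% passed and were higher. None of the 7 had an adjusted p under 0.05 in edgeR, against 0.114% of all genes, while 1 had an unadjusted p under 0.05, against 10.1% of all genes. In DESeq2 1 had an adjusted p under 0.05, against 2.77% of all genes. In limma 1 did with a pseudocount of 1 (Anxa1, adjusted p = 0.047), against 0.177% of all genes, and none with a pseudocount of 0.1 (Anxa1, adjusted p = 0.052), against 0.156%. With the block, 1 of the 7 had an adjusted p under 0.05, against 4.70% of all genes. In replicates 2 and 3 only it was again 1 of the 7, against 12.6% of all genes. Groups that did not overlap, with the Scd-1-/- libraries higher, were found for 1 of the 7 members and for 7.67% of all genes. The median log2 fold change of the 7 was 0.16, and that of all genes tested was -0.00051.

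**Figure D2:**
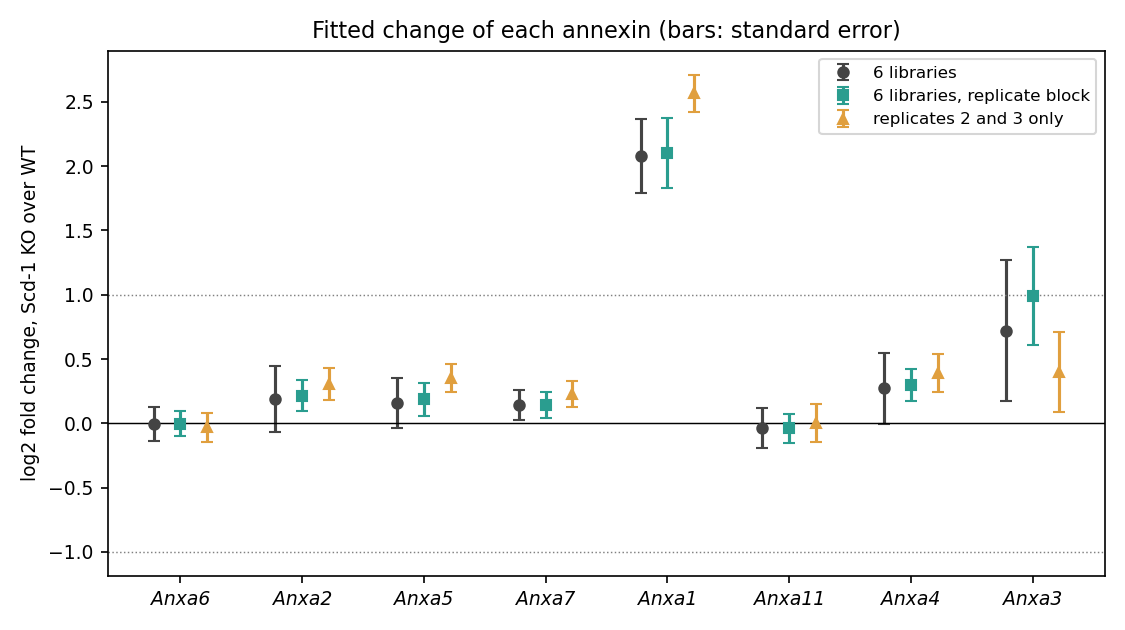
Fitted log2 fold change of each annexin, Scd-1-/- over WT, with standard errors, from 6 libraries (circles), from 6 libraries with the replicate number as a block (squares) and from replicates 2 and 3 only (triangles); dotted lines mark 1 and -1. Anxa1 lies between 2.08 and 2.57, and the other 6 members tested lie between -0.04 and 0.39; Anxa3 comes from the wider fit of every counted gene.

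Some markers of natural killer cells were higher in Scd-1-/- libraries, as Anxa1 was. Of the 7 on the list, 4 were tested. Of these, 2 passed the thresholds, against 0.738% of all genes, and all 4 had an adjusted p under 0.05 with the replicate block, against 4.70% of all genes. The 2 were Tyrobp, a signalling adaptor of activating receptors, with a log2 fold change of 3.23 (edgeR, adjusted p = 0.065), and Eomes, a T-box factor that effector CD8 T cells also express, with 1.69 (adjusted p = 0.036). Without WT replicate 2 Tyrobp missed the thresholds (3.10, unadjusted p = 0.0013), while Eomes passed in each of the 6 fits that left out 1 library. Eomes too is among the genes that the study picked from these libraries, so its direction here is not independent evidence. The summed level of the list was 6.67 to 10.1 FPKM in WT against 24.7 to 56.9 FPKM in Scd-1-/- libraries, lowest in replicate 1 of each genotype. Anxa1 was lowest in replicate 1 among the Scd-1-/- libraries too, but highest there among the WT libraries. Klrb1c was at 0.501 to 0.938 FPKM in WT against 1.66 to 9.39 FPKM in Scd-1-/- libraries. Its log2 fold change was 3.09 (edgeR, adjusted p = 0.121, and 0.0059 with the replicate block). Fcgr3 overlapped, at 0.568 to 1.38 FPKM in WT against 1.26 to 3.65 FPKM in Scd-1-/- libraries. Its log2 fold change was 1.45 (edgeR, adjusted p = 0.352, and 0.026 with the replicate block). Ncr1, which encodes the receptor NKp46 that defines natural killer cells, had at most 5 counts in any library. Klra4 had at most 2 counts and Klra8 at most 1. Among myeloid markers, Cd14 was at 0.179 to 0.461 FPKM in WT against 1.14 to 1.89 FPKM in Scd-1-/- libraries. These levels rested on 4 to 11 counts in WT and 28 to 42 counts in Scd-1-/- libraries. Cd14 was higher without overlap, as were 7.67% of the genes tested. In the wider fit Cd14 passed the thresholds, with a log2 fold change of 2.41 (edgeR, unadjusted p = 8.4e-04, adjusted p = 0.096, and 0.029 with the replicate block), as 0.541% of the genes in that fit did in this direction, and it passed in 2 of the 6 fits that left out 1 library, those without replicate 1 of either genotype. Itgam, which encodes an integrin chain of myeloid and natural killer cells, had 0 to 16 counts in WT against 13 to 83 counts in Scd-1-/- libraries. Its log2 fold change was 2.35 (edgeR, adjusted p = 0.524, and 0.046 with the replicate block), and it was higher in all 3 same-numbered pairs, as were 20.6% of all genes tested. With the block, 2.24% of the genes in the wider fit were called higher. Itgam had a log2 fold change of 1.05 without Scd-1-/- replicate 1 and 3.73 without WT replicate 1. The name Itgam stands on another row of the files as well, so these counts are uncertain. Adgre1, S100a9, Mpo and Clec7a were at 0, and Lyz2 had at most 2 counts. The summed level of the 11 myeloid markers overlapped between the groups, at 8.50 to 17.4 FPKM in WT against 10.6 to 29.0 FPKM in Scd-1-/- libraries. Cd8a was at 43.2 to 47.6 FPKM in WT against 27.9 to 36.6 FPKM in Scd-1-/- libraries (edgeR, adjusted p = 0.297), and was lower in replicates 2 and 3 only, with a log2 fold change of -0.58 (adjusted p = 0.017). Cd8b1 was lower there too, with -0.40 (edgeR, adjusted p = 0.038), where 12.6% of all genes were called. The 6 CD8 T cell markers had log2 fold changes of -0.46 to -0.0015 over the 6 libraries, and 4823 of 9627 genes tested were below 0. Cd3d, Cd3e, Cd3g and Trac were close to 0, from -0.044 to -0.0015. In replicates 2 and 3 only, Cd3d, Cd3g and Trac were above 0. Cd79b, a gene of the B cell receptor complex, was at 9.41 to 10.7 FPKM in WT against 3.13 to 7.90 FPKM in Scd-1-/- libraries. It was lower without overlap, as were 8.32% of all genes. Its log2 fold change was -1.02 (edgeR, adjusted p = 0.387), and its adjusted p was 0.043 with the replicate block and 0.0015 in replicates 2 and 3 only. It was -1.55 without Scd-1-/- replicate 1, where it passed the thresholds, and did not pass them in the other fits that left out 1 library. The summed levels of the erythroid and platelet marker lists stayed at or under 0.787 and 0.465 FPKM. The part of these genes in the difference of Anxa1 was not tested.

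**Figure D3:**
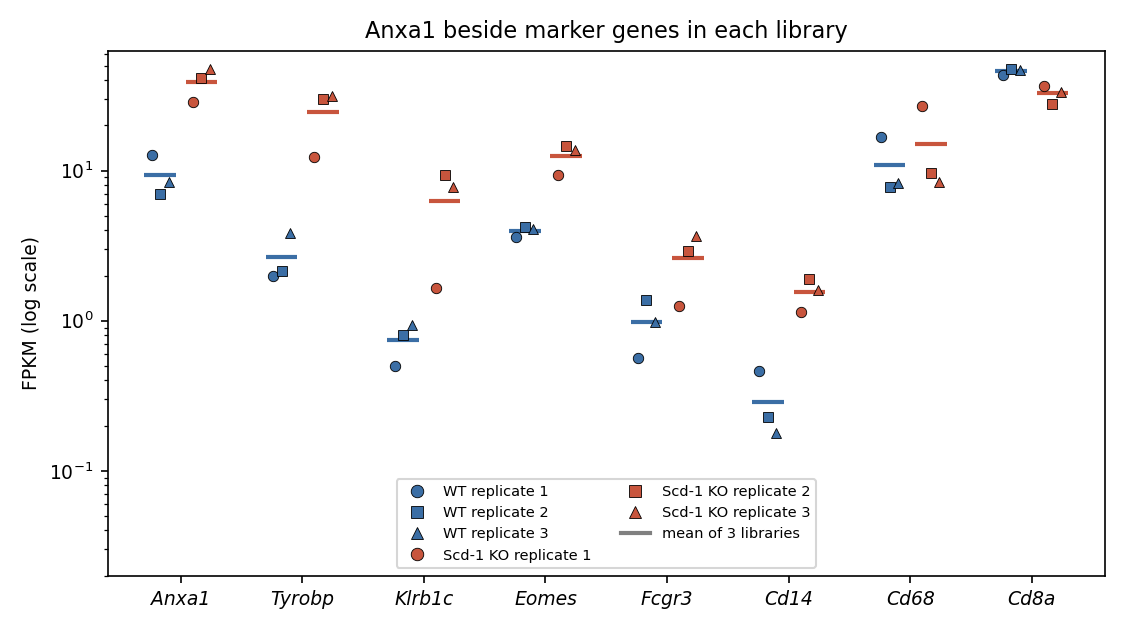
FPKM (log axis) of Anxa1, of the natural killer markers Tyrobp, Klrb1c, Eomes and Fcgr3, of the myeloid markers Cd14 and Cd68 and of Cd8a in each WT (blue) and Scd-1-/- (red) library, with bars for the mean of 3 libraries. Tyrobp, Klrb1c and Eomes are lowest in replicate 1 among the Scd-1-/- libraries, as Anxa1 is, while Cd68 is highest there; among the WT libraries these 3 genes are lowest in replicate 1, where Anxa1 is highest.

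Anxa2 (chr9:69453620-69491795, plus strand) encodes the annexin that carries S100A10 to the cell surface, where the pair binds plasminogen. Its levels were 620, 390 and 355 FPKM in WT against 640, 414 and 484 FPKM in Scd-1-/- replicates 1 to 3. The groups overlapped, and replicate 1 was the highest library in both. The log2 fold change was 0.19 (standard error 0.26; edgeR, adjusted p = 0.880), with a 95% interval of -0.41 to 0.79. Without Scd-1-/- replicate 1 it was -0.0058, and without WT replicate 1 it was 0.50.

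The genes of the annexin-binding proteins were read next, of which 9 of 11 were tested. S100a10, the partner of annexin A2, was at 910, 637 and 606 FPKM in WT against 1189, 925 and 1010 FPKM in Scd-1-/- replicates 1 to 3, groups that did not overlap. S100a11, whose protein binds the head of annexin A1, was at 447, 309 and 295 FPKM in WT against 563, 477 and 538 FPKM in Scd-1-/- libraries, also without overlap. S100a6, a calcium sensor that binds several annexins, was at 307, 131 and 112 FPKM in WT against 442, 351 and 346 FPKM in Scd-1-/- libraries. In all these genes WT replicate 1 was the highest WT library and came nearest to the Scd-1-/- libraries. S100a4, a sensor that binds annexin A2, was at 405 FPKM in WT replicate 1 and at 106 and 102 FPKM in the other WT libraries. The Scd-1-/- libraries, at 488, 347 and 275 FPKM, therefore overlapped with WT through that library alone.

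None of the 9 passed the thresholds or had an adjusted p under 0.05 in edgeR, DESeq2 or limma with a pseudocount of 1, and 3 had an unadjusted p under 0.05 in edgeR, against 10.1% of all genes. Of the 9, 3 had groups without overlap and higher in Scd-1-/- libraries, against 7.67% of all genes. The log2 fold changes were 0.56 for S100a10 (adjusted p = 0.395), 0.61 for S100a11 (adjusted p = 0.352), 1.06 for S100a6 (adjusted p = 0.396) and 0.86 for S100a4 (adjusted p = 0.662). With the replicate block these 4 genes were called, at adjusted p of 0.033, 0.034, 0.022 and 0.045 in the same order, where 2.64% of all genes were called higher. In replicates 2 and 3 only, where 12.6% of all genes were called, they were called too, with log2 fold changes of 0.68, 0.79, 1.55 and 1.61. Ahnak, the giant scaffold protein that annexin A2 and S100A10 hold at the membrane, had a log2 fold change of 0.48 (edgeR, adjusted p = 0.633), and 0.69 in replicates 2 and 3 only (adjusted p = 0.013). With 1 library left out, the log2 fold change of S100a4 fell to 0.53 without WT replicate 3 and 0.55 without WT replicate 2, and was 1.87 without WT replicate 1. That of S100a6 ran from 0.79 without WT replicate 3 to 1.68 without WT replicate 1, and that of Ahnak from 0.27 without WT replicate 2 to 0.84 without WT replicate 1. The median log2 fold change of the 9 partner genes was 0.48. The ratio of S100a10 to Anxa2 FPKM was 1.60 ± 0.12 in WT against 2.06 ± 0.19 in the Scd-1-/- libraries (SD, n = 3; exact two-sided permutation test, p = 0.1, the smallest that 3 against 3 can give). The ratio of S100a11 to Anxa1 FPKM was 38.2 ± 5.21 in WT against 14.2 ± 4.83 in the Scd-1-/- libraries (SD, n = 3; exact permutation test, p = 0.1). Both ratios were without overlap between the groups. They were among 4 ratios computed, all chosen after values were seen and all with p = 0.1 in the exact test, before and after adjustment.

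**Figure D4:**
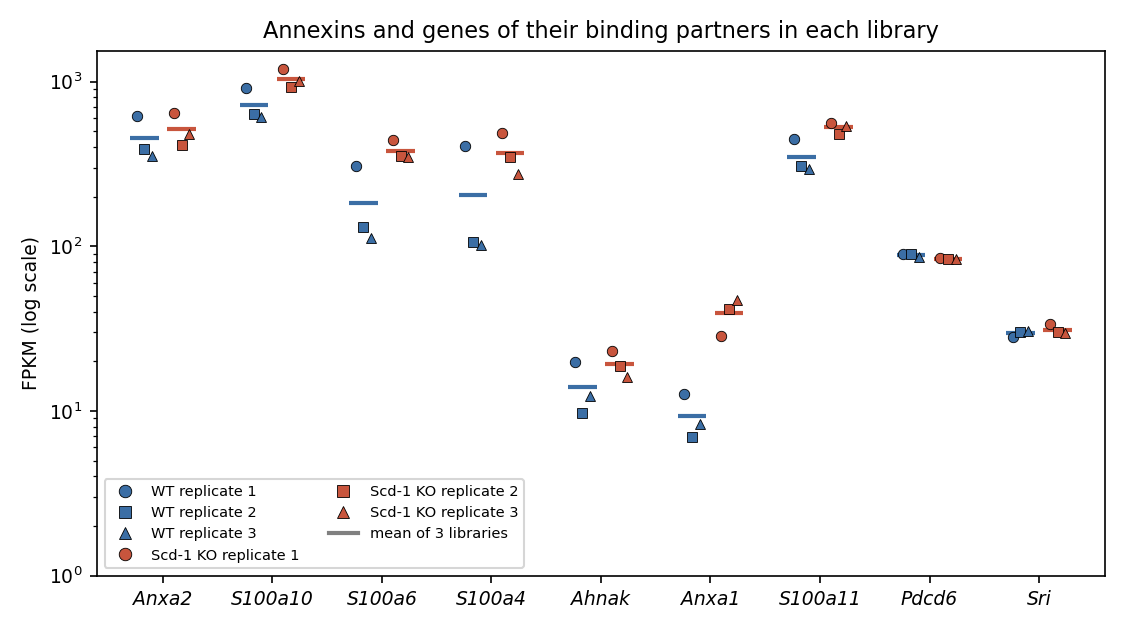
FPKM (log axis) of Anxa2 with the genes of its partners S100a10, S100a6, S100a4 and Ahnak, of Anxa1 with S100a11, and of Pdcd6 and Sri, in each WT (blue) and Scd-1-/- (red) library, with bars for the mean of 3 libraries. WT replicate 1 lies above the other WT libraries in S100a6 (307 FPKM) and S100a4 (405 FPKM), while Pdcd6 and Sri keep nearly the same level in all libraries.

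Anxa6 (chr11:54979108-55033445, minus strand) encodes the annexin with a doubled core, which tethers membranes, cholesterol and the Ras regulator encoded by Rasa1. Its levels were 533, 505 and 457 FPKM in WT against 551, 467 and 451 FPKM in Scd-1-/- replicates 1 to 3. The groups overlapped over nearly their whole ranges. The log2 fold change was -0.0041 (standard error 0.13; edgeR, adjusted p = 0.994), with a 95% interval of -0.31 to 0.30, or 0.805-fold to 1.24-fold. Rasa1 was at 1.52 to 2.46 FPKM in WT against 2.00 to 2.62 FPKM in Scd-1-/- libraries, and Prkca, a protein kinase C that annexin A6 can bring to the membrane, was at 2.45 to 4.68 and 2.47 to 3.65 FPKM. Neither passed a test (edgeR, adjusted p = 0.865 and 0.921).

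Anxa5 (chr3:36448923-36475894, minus strand) encodes the annexin that coats exposed phosphatidylserine. Its levels were 77.4, 49.6 and 53.3 FPKM in WT against 70.2, 64.9 and 63.1 FPKM in Scd-1-/- replicates 1 to 3. WT replicate 1 was the highest of all 6 libraries, and the other 2 WT libraries were the lowest. The log2 fold change was 0.16 (standard error 0.19; edgeR, adjusted p = 0.869), and 0.35 in replicates 2 and 3 only (adjusted p = 0.065). It was 0.034 without WT replicate 2 and 0.40 without WT replicate 1.

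Anxa7 (chr14:20455260-20480133, minus strand) encodes synexin, a membrane fusion protein that binds sorcin, and Anxa11 (chr14:25842156-25886804, plus strand) encodes an annexin that binds the calcium sensor ALG-2. Levels of Anxa7 were 49.3, 45.0 and 45.6 FPKM in WT against 48.7, 52.0 and 51.4 FPKM in Scd-1-/- replicates 1 to 3. Levels of Anxa11 were 19.3, 16.8 and 16.8 FPKM in WT against 18.0, 18.6 and 14.2 FPKM in Scd-1-/- replicates 1 to 3. Both genes varied little between libraries, and their groups overlapped. The log2 fold change was 0.14 for Anxa7 (standard error 0.12; edgeR, adjusted p = 0.769) and -0.03 for Anxa11 (standard error 0.16; adjusted p = 0.966). Their 95% intervals ran from -0.13 to 0.42 and from -0.40 to 0.33. The genes of their partners kept close levels too. Sri, which encodes sorcin, was at 28.0 to 30.6 FPKM in WT against 29.8 to 33.8 FPKM in Scd-1-/- libraries. Pdcd6, which encodes ALG-2, was at 86.4 to 89.2 FPKM in WT against 83.8 to 84.8 FPKM in Scd-1-/- libraries, lower without overlap, as were 8.32% of all genes, with a log2 fold change of -0.04 (edgeR, adjusted p = 0.939).

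Anxa4 (chr6:86736840-86793584, minus strand) encodes a small annexin that gathers on membrane wounds. Its levels were 7.15, 4.04 and 4.41 FPKM in WT against 7.81, 5.18 and 5.60 FPKM in Scd-1-/- replicates 1 to 3. Replicate 1 was the highest library in both genotypes, and the groups overlapped through WT replicate 1. The log2 fold change was 0.27 (standard error 0.28; edgeR, adjusted p = 0.827), and 0.30 with the replicate block (adjusted p = 0.204). It was 0.067 without Scd-1-/- replicate 1 and 0.59 without WT replicate 1.

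Anxa3 (chr5:96793339-96845966, plus strand) encodes an annexin best known from neutrophils and was the one member under the minimum. Its levels were 0.182, 0.380 and 1.15 FPKM in WT against 0.824, 0.867 and 1.08 FPKM in Scd-1-/- replicates 1 to 3, on 14 to 87 counts. The highest library was WT replicate 3, and the groups overlapped. In the wider fit, the log2 fold change was 0.72 (standard error 0.55; edgeR, adjusted p = 0.755), with a 95% interval of -0.49 to 1.93. It was 1.74 without WT replicate 3 and 0.31 without WT replicate 1. Of the 4 annexin genes that are not members, Anxa8, Anxa10 and Anxa13 had no count in any library, which allows up to 3 counts in each. Anxa9 was at 1.25 to 2.22 FPKM in WT against 1.53 to 2.03 FPKM in Scd-1-/- libraries (log2 fold change 0.06; edgeR, adjusted p = 0.970), and it overlaps Mindy1 on the other strand and 6330562C20Rik, which had 17 to 58 counts in a library, on its own strand, so its counts are less certain. The genes annotated on the strand opposite to the members had at most 2 counts in a library.

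Replicate 1 was shared by the genotypes as a source of spread in 4 of the 7 tested members. Anxa2, Anxa4, Anxa5 and Anxa6 were highest in replicate 1 in both genotypes, as were 28.3% of all genes tested. On the log2 scale, WT replicate 1 exceeded the mean of the other WT libraries by 0.74 in Anxa2, 0.76 in Anxa4 and 0.59 in Anxa5. In the Scd-1-/- libraries the excess was 0.51, 0.54 and 0.13. Anxa1 went both ways, with 0.72 in WT and -0.64 in Scd-1-/- libraries. Its log2 ratio of Scd-1-/- to WT within a replicate number was thus 1.17 for number 1, and 2.57 and 2.50 for numbers 2 and 3. Anxa1, Anxa2 and Anxa4 were higher in the Scd-1-/- library in all 3 same-numbered pairs, 3 of 7 members, against 20.6% of all genes. In Anxa2 these log2 ratios were 0.05, 0.09 and 0.45, and in Anxa4 they were 0.13, 0.36 and 0.34.

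**Figure D5:**
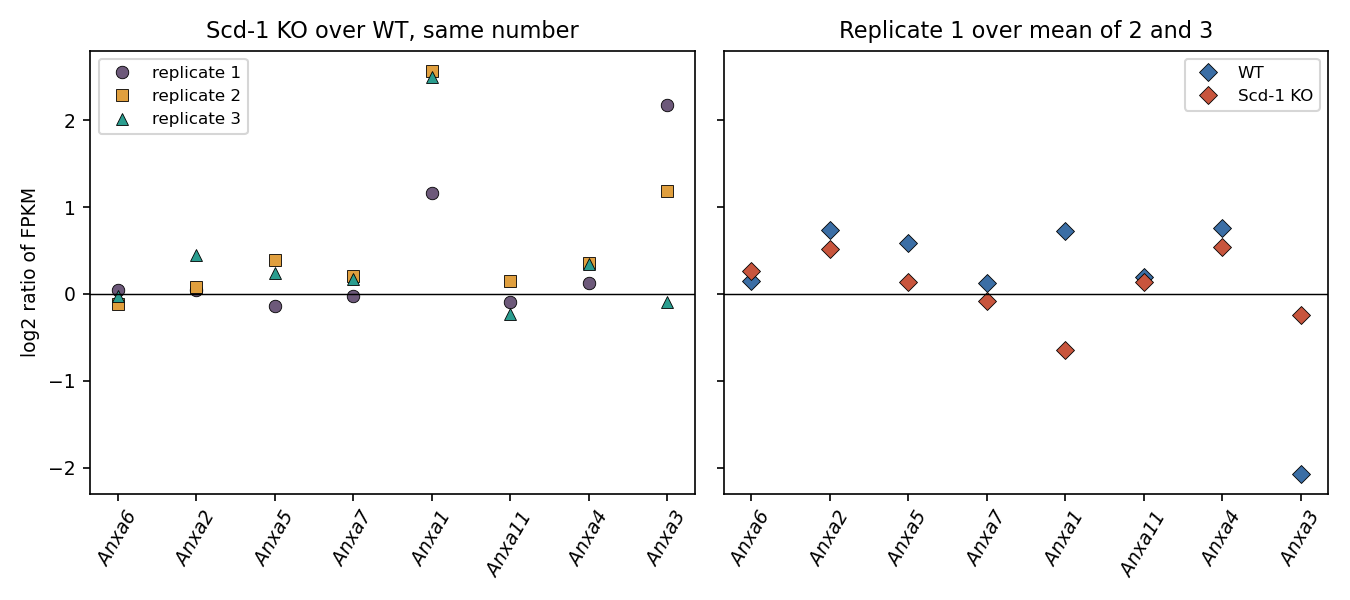
Log2 ratios of FPKM for each annexin: left, Scd-1-/- over WT within each replicate number; right, replicate 1 over the mean of replicates 2 and 3 within each genotype. Anxa1 is above 1 in every pair and differs in sign between the genotypes on the right (0.72 in WT, -0.64 in Scd-1-/-), and the low-count Anxa3 varies most.

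Other genes of annexin biology were read from fixed lists. All 5 formyl peptide receptor genes, through which secreted annexin A1 acts, had at most 3 counts in any library, and 4 of them had none. Of 6 phosphatidylserine scramblase and flippase genes tested, none passed the thresholds or had an adjusted p under 0.05 in edgeR, DESeq2 or limma with a pseudocount of 1, and 2 had an unadjusted p under 0.05, against 10.1% of all genes. Their most abundant gene, Plscr1, a scramblase gene, had a log2 fold change of 0.31 (edgeR, adjusted p = 0.532). In replicates 2 and 3 only, 2 of the 6 were called, against 12.6% of all genes. These were Plscr3 (log2 fold change -1.06, edgeR, adjusted p = 0.0072) and Tmem30a (0.85, adjusted p = 0.0085), named after their values were seen. Groups without overlap and higher in Scd-1-/- libraries were found for 2 of the 6, against 7.67% of all genes. Of 5 phosphatidylserine receptor and bridging genes, 1 passed and was higher, against 0.499% of all genes. This was Havcr2, which encodes the inhibitory receptor TIM-3, at 4.44, 1.79 and 2.29 FPKM in WT against 11.9, 12.7 and 13.5 FPKM in Scd-1-/- replicates 1 to 3 (log2 fold change 2.18, standard error 0.34; edgeR, adjusted p = 0.082, and 0.0067 with the replicate block). Havcr2 missed the thresholds without WT replicate 3 (2.03, unadjusted p = 0.0013) and without Scd-1-/- replicate 3 (2.13, unadjusted p = 0.0011). The study also picked Havcr2 from these libraries, so its direction here is not independent evidence. Of 14 membrane repair genes, none passed the thresholds in edgeR, and the most abundant, Esyt1, which encodes a tether between the endoplasmic reticulum and the plasma membrane, had -0.05 (adjusted p = 0.940). For this list 1 of 14 genes had an unadjusted p under 0.05, against 10.1% of all genes, and 1 had an adjusted p under 0.05 in DESeq2, against 2.77%. With the replicate block 1 of the 14 was called, against 4.70% of all genes. This was Capn2, named after its value was seen, which encodes a calpain subunit (log2 fold change 0.66; edgeR, adjusted p = 0.027). The glucocorticoid receptor and the genes it induces, 6 of which were tested, gave none past the thresholds and a median log2 fold change of 0.24. Among these, 1 of 6 had an unadjusted p under 0.05 and 1 an adjusted p under 0.05 in DESeq2, against the same 10.1% and 2.77% of all genes. With the replicate block 1 of the 6 was called, against the same 4.70%. This was Sgk1, a kinase gene also named after its value was seen (log2 fold change 1.09; edgeR, adjusted p = 0.033). Fkbp5, the most abundant of them, had a log2 fold change of 0.25 (edgeR, adjusted p = 0.687). Of the plasminogen genes, 2 of 8 were tested, S100a10 among them, and none passed.

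The genes most like Anxa1 over the 6 libraries, by Pearson's r of log2 counts scaled to the library total, were Tmem40, Clnk, Trdc, Il18r1 and Cdkn2b, with r of 0.995 to 0.998. Clnk encodes an adaptor of immune receptors, Trdc the constant region of the T cell receptor delta chain, Il18r1 a subunit of the interleukin 18 receptor, and Cdkn2b a cell cycle inhibitor. The log2 fold changes of these genes ran from 0.89 for Tmem40 to 3.46 for Clnk. The mean level of Trdc was 1.78 FPKM in WT against 12.8 FPKM in Scd-1-/- libraries (log2 fold change 2.86, edgeR, adjusted p = 0.063). Its part in the difference of Anxa1 was not tested. Over 0.95 with Anxa1 were 121 genes, 1.26% of those tested. The genes most like Anxa6, which had the highest mean FPKM over the 6 libraries, were Coro1b, Zbtb17, Uckl1, Lck and Atp6v0d1, with r of 0.991 to 0.997. Lck encodes the kinase that starts T cell receptor signalling, and its mean level was 275 FPKM in WT against 274 FPKM in Scd-1-/- libraries. The points share genotype, replicate number and library, and these values are a description of 6 libraries.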

How the data were processed

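RNA-seq libraries of WT and Scd-1-/- Teff cells, 3 of each, were compared, with groups and replicate numbers taken from the sample titles. The authors deposited raw counts per gene and FPKM values. Per the submitters' processing notes, FastQC, HISAT2 and StringTie 1.3.0 were used on GRCm38. The methods add TMM scaling before FPKM, but counts divided by FPKM and by the library total gave the same length for a member in every library, so the deposited FPKM of the members hold no TMM factor. RNA and library kits differ between the labels and the methods, and the strand setting is not given in the sources used here. Counts were tested as deposited with edgeR 4.0.16 (quasi-likelihood test, TMM, no block, mean FPKM of at least 1) in R 4.3.3, with Benjamini-Hochberg adjustment over all genes tested. Alternatives were DESeq2 1.42.0, limma 3.58.1 on log2(FPKM + 1) or log2(FPKM + 0.1), other scalings, FPKM minimums of 5 or none, the replicate block, replicates 2 and 3 only, and each library left out. The edgeR fits with and without the block were tested on simulated data.

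The labels do not say what a replicate number stands for. Deviations from the group means, over 9627 genes, correlated between same-numbered libraries at r = 0.583, 0.297 and 0.460, each over 0.1, so the numbers were taken as pairs from the data. Numbers 2 and 3 were not separated by this: WT 3 with Scd-1-/- 2 gave 0.357 and WT 2 with Scd-1-/- 3 gave 0.173.

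Every annexin member was named. Of the other lists, genes past the thresholds or an adjusted p of 0.05, the most abundant gene of a list, and partner genes of at least 1 FPKM were named, as were the 5 genes most like Anxa1 and Anxa6. Markers, Cd14 and Itgam among them, were named for their values. The members and lists were chosen with earlier results of these data known. Positions are from GENCODE M21, matched for 98.85% of gene identifiers. Promoter windows and sequences are from RefSeq. Depth, at 14034479 to 15866216 counts, covers counting error only, and a count of 0 allows up to 3 counts.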

Additional observations from a re-analysis of the deposited data

How the results depend on the processing

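Of the values of the members' log2 fold changes under the alternatives, 110 kept their direction and their side of the thresholds, and 8 changed sign, all of them in Anxa2, Anxa6 and Anxa11, whose changes were near 0. Anxa1 passed the thresholds under every alternative that was run. With the replicate block, Anxa1 alone of the members reached an adjusted p under 0.05. Apart from the calls given beside the results (Anxa1, S100a10, S100a11, S100a6, S100a4, Havcr2, Capn2, Sgk1, Cd79b, Cd14, Itgam and the natural killer markers), the block changed no call of a named gene of annexin biology.

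The number of members with an adjusted p under 0.05 was 0 in the main test. It was 1, Anxa1, without an FPKM minimum, with a minimum of 5 FPKM, in DESeq2, in limma with a pseudocount of 1, with the replicate block and in replicates 2 and 3 only. Leaving out 1 library each, it ranged from 0 to 1, and it was 1 without WT replicate 1 or Scd-1-/- replicate 1. Genes past the thresholds numbered 71 in the main test, 148 without an FPKM minimum, 43 with a minimum of 5 FPKM, 161 in DESeq2, 184 with the replicate block and 369 in replicates 2 and 3 only. With 1 library left out the number was 25 to 163. Genes with an adjusted p under 0.05 numbered 11 in the main test, and 84, 18, 266, 452 and 1213 under the same alternatives in the same order, 17 in limma with a pseudocount of 1, and 2 to 182 with 1 library left out. A higher minimum tests fewer genes and leaving out a library uses fewer samples, but the numbers did not always fall with them. Genes past the thresholds numbered 143 without WT replicate 1 and 163 without Scd-1-/- replicate 1. The cause of the changes was not tested.

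The log2 fold change of Anxa11 was 0.0026 in replicates 2 and 3 only, and that of Prkca was 0.020. With 1 library left out, the log2 fold change ranged from -0.0058 to 0.50 for Anxa2, from 0.31 to 1.74 for Anxa3, from 0.067 to 0.59 for Anxa4, from 0.034 to 0.40 for Anxa5, from -0.10 to 0.064 for Anxa6, from -0.11 to 0.074 for Anxa11, from -0.15 to 0.21 for Anxa9, from -0.35 to 0.22 for Prkca and from -0.13 to 0.052 for Esyt1. It ranged from 0.53 to 1.87 for S100a4, from 0.79 to 1.68 for S100a6 and from 0.27 to 0.84 for Ahnak. S100a6 passed the thresholds with the replicate block (1.21), in replicates 2 and 3 only (1.55) and without WT replicate 1 (1.68). S100a4 passed them in replicates 2 and 3 only (1.61) and without WT replicate 1 (1.87). Havcr2 missed them without WT replicate 3 (2.03) and without Scd-1-/- replicate 3 (2.13), and Tyrobp without WT replicate 2 (3.10). Anxa3 rested on 14 to 87 counts. An exact permutation test of 3 libraries against 3 cannot give a p under 0.1.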
